A study of Mus musculus with 4 samples.

Results

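The Fos and Jun genes encode the subunits of activator protein 1 (AP-1), a transcription factor built from pairs of basic leucine zipper proteins. The 6 genes Fos, Fosb, Fosl2, Jun, Junb and Jund were chosen by family and found by name, with earlier results of these data known, and are 6 of the 18386 features counted in the cortex of APPswe/PS1ΔE9 and wild type mice. Their symbols are written in mixed letter case in the deposited table, so they were matched in any letter case, which gave 7 transcript rows.

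Proteins of the Fos group cannot pair with themselves and need a Jun partner, whereas Jun proteins can also pair with each other. Pairing is made by the leucine zipper, and the adjoining basic region contacts DNA. In cortical neurons, Fos, Fosb, Jun and Junb are known as immediate-early genes, which are transcribed within minutes of synaptic activity through the factors SRF and CREB, while Jund is known for a steadier level.

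Whole transcriptome sequencing was performed on cortex from 2 APPswe/PS1ΔE9 mice (APP) and 2 wild type mice (WT), all of them 12-month-old, single-housed males on a C57BL/6 background. The APP mice carried 2 transgenes, a chimeric mouse and human APP with the Swedish mutation and a human PS1 lacking exon 9, which in this line are driven by the prion protein promoter and are therefore not limited to 1 cell type. The WT controls were C57BL/6J mice without either transgene, and no treatment separated the groups before the terminal anaesthesia that all mice received. Each library came from the dissected cortex of 1 mouse, so with 2 mice per group the p-values rest on these 4 samples. The variance behind them is largely borrowed across features. Library APP.3 held 28525117 counts, APP.4 31392983, WT.1 43881196 and WT.2 35623228. Levels are given in CPM, the counts of a gene scaled to a common library total after TMM normalization. In such bulk tissue, fewer cells of a type and less RNA per cell cannot be told apart.

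The part of each mRNA that encodes the basic region is shown because it is where the 6 members are most alike, and because reads from such a stretch could in principle be counted on the wrong member. Each line gives 60 bases of coding sequence of the counted transcript, 5′ to 3′ (GENCODE M21, GRCm38), and capitals mark the 19 bases that are identical in all 6.
Fos: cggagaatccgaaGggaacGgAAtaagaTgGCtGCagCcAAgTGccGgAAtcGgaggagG
Fosb: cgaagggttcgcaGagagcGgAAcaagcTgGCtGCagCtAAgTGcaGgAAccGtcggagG
Fosl2: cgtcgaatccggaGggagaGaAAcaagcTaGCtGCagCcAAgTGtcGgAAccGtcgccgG
Jun: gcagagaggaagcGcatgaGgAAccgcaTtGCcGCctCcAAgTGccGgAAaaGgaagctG
Junb: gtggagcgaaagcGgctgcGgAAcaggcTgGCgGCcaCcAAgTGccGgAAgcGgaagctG
Jund: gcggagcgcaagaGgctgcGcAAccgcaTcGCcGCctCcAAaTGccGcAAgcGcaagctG

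These stretches lie at chr12:85475616-85475675 for Fos, chr7:19306583-19306642 for Fosb, chr5:32150445-32150504 for Fosl2, chr4:95050441-95050500 for Jun, chr8:84977569-84977628 for Junb and chr8:70699850-70699909 for Jund. In the Fos group the stretch is in exon 3 of 4, whereas Jun, Junb and Jund each have 1 exon and no intron. Within the Fos group 75.0% to 76.7% of the 60 bases were identical between pairs, and within the Jun group 75.0% to 78.3%. Between the groups the identity was 45.0% to 58.3%. Over the whole transcripts, every window of 100 bases, the length of a full read, differed from every window of another member by at least 19 bases, above the 7 mismatches that the authors' alignment allowed. At 36 bases, the shortest read that was kept, between 1.71% (Fosl2) and 10.6% (Jund) of a member's windows came within 7 mismatches of another member. Full-length reads of the members are thus separable, while some short reads may not be, and the share of such reads was not tested. A search of the other mouse transcripts, in the same orientation only, found 0 stretches of at least 90 bases with at least 93% identity. Antisense matches, and stretches of short-read length outside the family, were not searched.

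All 6 members were lower in both APP libraries than in both WT libraries. The log2 fold changes ran from -0.53 for Fos to -0.16 for Fosl2 and Jund, with a median of -0.35 against -0.001 over all features. None passed both cut-offs of edgeR's quasi-likelihood test, an FDR under 0.05 after Benjamini-Hochberg adjustment over all features together with a 1.5-fold change. The same cut-offs called 0.974% of all features, with 0.935% higher and 0.0381% lower in APP. At an unadjusted p under 0.05, 4 of the 6 members were lower in APP (Fos, Fosb, Jun and Junb), a class that held 4.84% of all features. Non-overlapping groups with APP lower, found for 6 of 6 members, occurred in 21.4% of all features, and a log2 fold change below 0 in 50.3%. With 2 against 2 mice, the smallest p that an exact two-sided permutation test can give for 1 gene is 0.33.

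**Figure D1:**
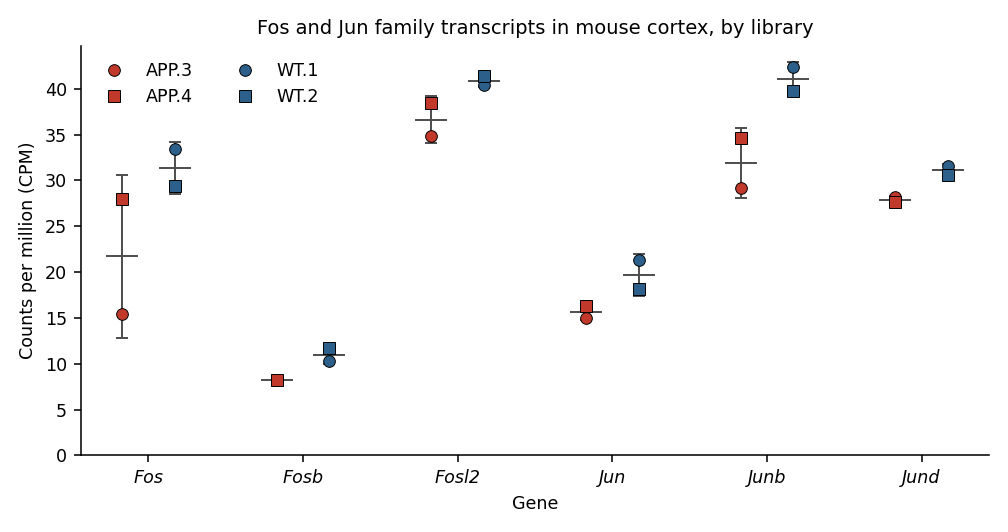
CPM of the 6 members in each library, with the mean (dash) and the SD over 2 libraries (bar), red for APP and blue for WT. The red points of each gene lie below its blue points, and the only wide gap within a group is that of Fos between APP.3 at 15.4 and APP.4 at 28.0 CPM.

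Fos, the namesake of the family and a widely used marker of recent neuronal activity, lies at chr12:85473890-85477273 on the plus strand. Its level, in CPM, was 15.4 (APP.3) and 28.0 (APP.4), against 33.4 (WT.1) and 29.4 (WT.2). Both APP libraries were below both WT libraries, but APP.4 was close to WT.2 and only APP.3 stood far below. The group means were 21.7 ± 8.87 CPM in APP and 31.4 ± 2.82 CPM in WT (SD, n = 2 each). The log2 fold change was -0.53 with a standard error of 0.22 and a 95% interval of -1.02 to -0.04 (adjusted p = 0.361). A single library decided this value. It was -0.17 without APP.3 (adjusted p = 0.33) and -1.02 without APP.4 (adjusted p = 3.58e-08), the only setting in which Fos passed both cut-offs and the number of members called went from 0 to 1. In that setting 0.511% of all features were called lower in APP.

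Fosb, which encodes both the FosB protein and, by alternative splicing, the long-lived ΔFosB, lies at chr7:19302696-19310051 on the minus strand. It was at 8.17 (APP.3) and 8.27 CPM (APP.4), and at 10.3 (WT.1) and 11.7 CPM (WT.2). The APP libraries were nearly equal and the WT libraries were higher and slightly apart. The means were 8.22 ± 0.0681 CPM in APP and 11.0 ± 1.04 CPM in WT (SD, n = 2 each). Its log2 fold change was -0.42 with a 95% interval of -0.69 to -0.14 (adjusted p = 0.185). Of 7 annotated Fosb transcripts only 1, the full-length Fosb-201, has counts in the table, so the ΔFosB form could not be measured apart.

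Fosl2 encodes Fra-2, a Fos relative that lacks the strong activation domain of Fos, and lies at chr5:32135801-32157842 on the plus strand. Its level was 34.8 CPM (APP.3) and 38.5 CPM (APP.4), against 40.4 CPM (WT.1) and 41.4 CPM (WT.2). The groups did not overlap, yet APP.4 and WT.1 differed by little. The log2 fold change of -0.16 had a 95% interval of -0.34 to 0.02, which includes no difference (adjusted p = 0.474).

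Jun, a partner of Fos that is itself activated by the JNK kinases, lies at chr4:95049034-95052222 on the minus strand. It was at 15.0 (APP.3) and 16.3 CPM (APP.4), and at 21.3 (WT.1) and 18.1 CPM (WT.2). Here the wider spread was within WT, where the means were 19.7 ± 2.33 CPM against 15.7 ± 0.95 CPM in APP (SD, n = 2 each). The log2 fold change was -0.33 with a 95% interval of -0.58 to -0.08 (adjusted p = 0.24).

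Junb, an activity-induced Jun protein that can also hold back activation by Jun, lies at chr8:84976910-84978718 on the minus strand. It was at 29.2 CPM (APP.3) and 34.6 CPM (APP.4), against 42.4 CPM (WT.1) and 39.8 CPM (WT.2). The groups were well apart, with means of 31.9 ± 3.85 CPM in APP and 41.1 ± 1.85 CPM in WT (SD, n = 2 each). Its log2 fold change of -0.37 had a standard error of 0.10 and a 95% interval of -0.58 to -0.15. This was the lowest adjusted p of the family, 0.14 by the quasi-likelihood test, 0.0359 by edgeR's exact test, 0.0314 by its likelihood ratio test and 0.0972 by DESeq2. The fold change stayed under 1.5 in each of them, and an adjusted p under 0.05 with APP lower was reached by 0.136% of all features in the quasi-likelihood test, 0.544% in the exact test and 0.642% in the likelihood ratio test.

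Jund, the Jun protein of steady expression, lies at chr8:70698949-70700616 on the plus strand. It was at 28.2 (APP.3) and 27.6 CPM (APP.4), and at 31.6 (WT.1) and 30.6 CPM (WT.2). It was the only member with APP.3 above APP.4, and libraries of a group differed by no more than 0.675 CPM in SD. The log2 fold change was -0.16 with a 95% interval of -0.33 to 0.02 (adjusted p = 0.463), and 18.0% of all features had a lower one.

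**Figure D2:**
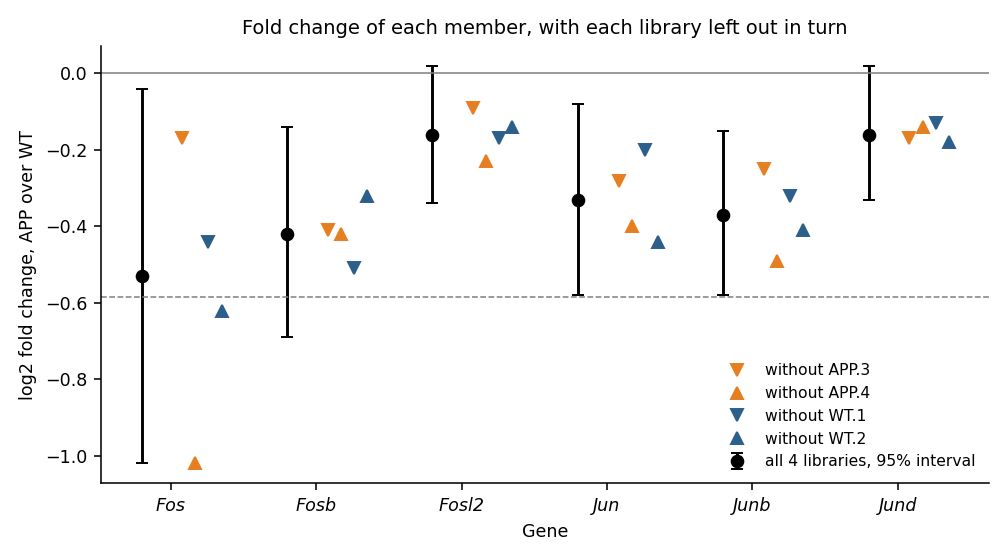
Log2 fold change of each member, APP over WT, with all 4 libraries (black, 95% interval) and with each library left out (triangles), where the dashed line marks a fold change of 1.5. All points lie below 0, and Fos spans from -0.17 without APP.3 to -1.02 without APP.4, while Jund spans from -0.18 to -0.13.

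The sign of the difference was the same in every setting. All 6 members were below 0 in each of 11 other settings that used all libraries and in each of 4 that left a library out. This was largely fixed beforehand and is no separate evidence for a difference. The settings with all libraries reuse the same counts. Both APP libraries lay below both WT libraries for every member, so leaving a library out could hardly change the sign. The quasi-likelihood test, the exact test and the likelihood ratio test each gave 4 members with an unadjusted p under 0.05, and DESeq2 gave 3, while all of them gave 0 past both cut-offs. Without APP.4, Jun and Junb also reached an adjusted p under 0.05 (0.0416 and 0.000284), at log2 fold changes of -0.40 and -0.49, as did 2.46% of all features with APP lower at any fold. Without WT.1 or without WT.2, no member had an adjusted p below 0.471.

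Levels can be set side by side between genes only per length of transcript. In CPM per kb of the counted protein-coding transcript, the order in WT was Junb at 22.7 ± 1.02, Jund at 18.6 ± 0.405, Fos at 14.8 ± 1.30, Fosl2 at 6.25 ± 0.104, Jun at 6.18 ± 0.73 and Fosb at 2.91 ± 0.275 (SD, n = 2). Fosl2 and Jun overlapped between the WT libraries, and the other neighbours in this order did not. In APP the order of the means was the same, with Junb at 17.6 ± 2.13, Jund at 16.7 ± 0.236, Fos at 10.3 ± 4.26, Fosl2 at 5.60 ± 0.394, Jun at 4.91 ± 0.298 and Fosb at 2.17 ± 0.018 (SD, n = 2). There, Junb and Jund overlapped between libraries, since Junb was below Jund in APP.3 and above it in APP.4.

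**Figure D3:**
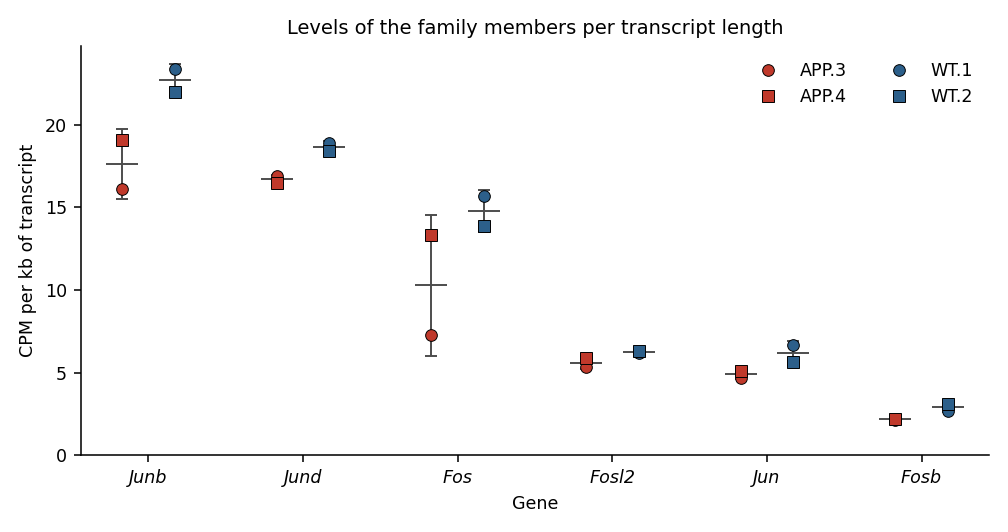
Level of each member in CPM per kb of its counted protein-coding transcript, ordered by the WT mean, with the mean and SD over 2 libraries. Junb leads at 22.7 in WT and 17.6 in APP, and Fosb is lowest at 2.91 and 2.17, so the order of the means is shared by the groups.

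Within a library, the length-scaled counts of Fos, Fosb and Fosl2 were set over those of Jun, Junb and Jund, a ratio that does not depend on how libraries were scaled. It was 0.396 for APP.3, 0.523 for APP.4, 0.508 for WT.1 and 0.511 for WT.2. Only APP.3 departed from the others, and the groups overlapped. The mean log2 ratio differed by -0.16 between APP and WT (exact two-sided permutation test, p = 1.0), and by 0.04, the opposite sign, without APP.3. Fos made up 13.8% of the length-scaled counts of the family for APP.3 and between 20.0% and 21.4% in the other libraries. Junb held 30.7% to 31.8% in all 4. Set over Jund, the ratio of Junb was 0.955 for APP.3, 1.16 for APP.4, 1.24 for WT.1 and 1.20 for WT.2, so the groups did not overlap, and the exact two-sided permutation p was the smallest possible at 0.33. Of 5 ratios of single members, that of Fosb over Fosl2 also separated the groups (p = 0.33 by the same exact test), while Fos over Jund, Fos over Fosl2 and Jun over Jund overlapped (p = 0.667 each by the exact test).

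Nearly all counts of a member came from 1 protein-coding transcript. For Fosb, Fosl2, Jun, Junb and Jund it was the only transcript with counts. Fos had a further non-coding processed transcript, Fos-203, with 4 of 448 Fos counts (APP.3), 0 of 867 (APP.4), 12 of 1467 (WT.1) and 6 of 1042 (WT.2). These are shares of 0.893%, 0%, 0.818% and 0.576%, with a 95% Wilson interval of 0.348% to 2.27% in APP.3, 0.469% to 1.42% in WT.1 and 0.264% to 1.25% in WT.2. The 0 in APP.4 allows a share of up to 0.346% at a limit of 3 counts, and up to 0.441% by the Wilson interval. The reads carry no molecular identifiers, so these intervals and limits cover counting error only. Jun and Jund overlap antisense genes. The libraries were strand-specific, but whether strand was used in the counting is not given in the sources used here. Junos, antisense to Jun over 689 bases, was counted 0 and 1 times in the APP libraries and 10 and 4 times in the WT libraries. Gm11175, antisense to Jund over 919 bases, had 9 and 6 against 12 and 13. Both were far below the counts of the member they overlap.

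Promoter sequence is shown for the 4 members known as immediate-early genes, whose RefSeq start (GRCm38.p6) lies within 30 bases of the start of the counted transcript. For Fosl2 and Jund these starts lie 671 and 1210 bases apart, so none is printed. Each line gives 120 bases on the gene's strand that end just before the RefSeq start. For Fosb they end just before the start of the counted transcript, which lies 6 bases farther upstream. Capitals mark matches to TGACG or TGACNTCA, a short and a long form of the sites that CREB and AP-1 proteins bind.
Fos (chr12:85473770-85473889, plus strand): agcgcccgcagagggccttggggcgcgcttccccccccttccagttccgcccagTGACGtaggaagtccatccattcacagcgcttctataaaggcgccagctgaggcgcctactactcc
Fosb (chr7:19310052-19310171, minus strand): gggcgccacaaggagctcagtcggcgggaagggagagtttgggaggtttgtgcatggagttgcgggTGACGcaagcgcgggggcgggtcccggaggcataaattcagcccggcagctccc
Jun (chr4:95052223-95052342, minus strand): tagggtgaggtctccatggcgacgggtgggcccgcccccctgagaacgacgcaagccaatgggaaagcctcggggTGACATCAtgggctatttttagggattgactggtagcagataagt
Junb (chr8:84978749-84978868, minus strand): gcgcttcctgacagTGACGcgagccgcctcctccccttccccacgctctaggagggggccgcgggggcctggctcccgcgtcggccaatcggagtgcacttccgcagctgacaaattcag

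Motifs were searched on both strands of the 250 bases before the RefSeq start of all 6 members and of 32841 mouse promoters. TGACG was found in 3 of 6 members, Fos (66 and 129 bases before the start), Fosb (60 bases) and Junb (106 bases), and in 17.8% of all promoters. This motif was chosen after the sequences had been seen, and it is part of the full CREB site TGACGTCA, which was in 0 of 6 members and 1.55% of promoters. TGACNTCA, which includes TGACGTCA, was found in Jun alone, 45 bases before the start, and in 7.49% of promoters. The AP-1 site TGANTCA was in 0 of 6 and 6.75%, and the CArG box that SRF binds in 0 of 6 and 1.47%. TATAAA was in Fos alone, 33 bases before the start, and in 12.4% of promoters. Every match is a description of these letters in this window. Sites farther upstream were not searched. For Fosl2 the window lies past the start of the counted transcript. For Jund the window ends at a RefSeq start 1210 bases before the counted start. A count of 0 therefore does not show that a gene lacks the site.

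The mRNAs also differ in AU-rich elements, short repeats in the 3′ UTR that mark many immediate-early mRNAs for rapid decay. Per kb of 3′ UTR, the pentamer ATTTA occurred 4.91 times in Fos, 4.12 in Junb, 3.24 in Jun, 1.88 in Jund, 1.72 in Fosl2 and 0.466 in Fosb, against a median of 1.34 over 14092 mouse 3′ UTRs. Fos thus lay among the densest 6.93% of genes, Junb among the densest 10.7% and Jun among the densest 18.0%. Fosb lay below the median. Whether this density bears on the fold changes was not tested. The nonamer TTATTTATT was present in Fos and Fosl2, and in 7.93% of all these 3′ UTRs.

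The genes around AP-1 were examined in fixed lists, each described by its counts and its median beside the median of -0.001 over all features. Dimer partners and related basic leucine zipper factors had 0 of 10 counted genes past both cut-offs, a median log2 fold change of 0.07, and 4 genes below 0 and 6 above. Atf3, a stress-induced factor that pairs with Jun, was at 2.55 and 2.20 CPM in APP and 0.865 and 1.33 in WT, and its log2 fold change was 1.13 (adjusted p = 0.121). It pointed away from the 6 members. It did not pass the quasi-likelihood test or DESeq2 (adjusted p = 0.22). Both cut-offs were passed by the exact test (adjusted p = 0.0211) and the likelihood ratio test (0.0165). With a library left out, its log2 fold change ranged from 0.84 without WT.1 to 1.45 without WT.2.

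Upstream of the members, 29 kinases and SRF or CREB factors had 0 genes past the cut-offs and a median of -0.05, with 18 below 0 and 11 above. Crem, a CREB relative that includes activity-induced repressors, had 17.8 and 16.5 CPM in APP against 22.4 and 22.0 in WT, and its log2 fold change was -0.38 (adjusted p = 0.104). Rps6ka1, a kinase that phosphorylates CREB and SRF, had 6.45 and 7.94 CPM against 5.32 and 4.99, a log2 fold change of 0.48 (adjusted p = 0.222) that passed both cut-offs without APP.3 (0.62). The factor Srf itself was at 19.1 and 19.5 CPM against 21.2 and 24.1, and Creb1 at 123 and 117 against 120 and 120.

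Other immediate-early regulators were lower in APP in 14 of 15 genes, with a median of -0.36 and 10 of 15 non-overlapping against 21.4% of all features, but 0 of 15 passed both cut-offs. Egr1, an activity-induced zinc finger factor, had an adjusted p of 0.0397 at a log2 fold change of -0.48, which is below the fold cut-off except without APP.4 (-0.63). Npas4, a factor induced by calcium entry in neurons, was at 4.89 CPM (APP.3), 8.14 (APP.4), 12.2 (WT.1) and 12.4 CPM (WT.2), a log2 fold change of -0.91 (adjusted p = 0.0739). It passed both cut-offs by the exact test, the likelihood ratio test and DESeq2 (adjusted p = 0.00334, 0.00306 and 0.00459), with protein-coding transcripts only (0.0398) and with sums per symbol (0.0474). Leaving out APP.3 gave -0.59, APP.4 -1.32, WT.1 -0.93 and WT.2 -0.9 on the log2 scale. Egr2 was at 5.41, 10.2, 12.3 and 10.7 CPM in the same order, a log2 fold change of -0.56 (adjusted p = 0.379), which was -0.19 without APP.3 and, past both cut-offs, -1.09 without APP.4 (adjusted p = 3.06e-05). As with Fos, APP.3 was the lowest library for both, and it was the lowest for 11 of the 15, against 26.9% of all features and 5 of the 6 members.

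Among activity-dependent effectors, 20 of 22 genes were below 0, the median was -0.39, and 2 of 22 fell past both cut-offs. Over all features, 50.3% were below 0 and 0.0381% were called lower by both cut-offs. Arc, which controls the removal of AMPA receptors from synapses, was at 101 CPM (APP.3), 147 (APP.4), 213 (WT.1) and 226 CPM (WT.2), and fell by 0.83 on the log2 scale (adjusted p = 0.0305). Dusp1, a phosphatase of the MAP kinases, was at 9.93, 10.6, 15.0 and 16.1 CPM and fell by 0.59 on the log2 scale (adjusted p = 0.0329). Without APP.3 both were under the fold cut-off at -0.58 and -0.55. Leaving out WT.1 took Arc to an adjusted p of 0.055 and Dusp1 to 0.181, and leaving out WT.2 took them to 0.156 and 0.396. With all libraries, Arc had an adjusted p of 0.0947 by DESeq2, and Dusp1 was under the fold cut-off at -0.55 with protein-coding transcripts only. Homer1, Ptgs2 and Dusp6 had adjusted p-values of 0.0309, 0.0485 and 0.0235 at log2 fold changes of -0.46, -0.57 and -0.46, under the fold cut-off. Homer1 had 0.0507 without TMM. Ptgs2 had 0.0509 with DESeq2 size factors and 0.0535 by the earlier quasi-likelihood method. The exact test, the likelihood ratio test and DESeq2 gave lower values for each of them. Leaving out WT.1 gave -0.55, -0.72 and -0.40 on the log2 scale, and leaving out WT.2 gave -0.35, -0.39 and -0.52. Pim1, a kinase, was at 2.24 and 2.20 CPM in APP and 3.57 and 3.64 in WT, and its log2 fold change was -0.70 (adjusted p = 0.152).

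Factors of AU-rich mRNA decay and AP-1 protein turnover had 0 of 11 past the cut-offs and a median of -0.02. Zfp36, which binds AU-rich elements and speeds decay, was at 1.17 and 0.839 CPM in APP and 0.455 and 0.480 in WT, with 17 to 34 counts per library and a log2 fold change of 1.10 (adjusted p = 0.26). Its relative Zfp36l2 was at 11.2 and 15.8 CPM against 12.0 and 8.69, a log2 fold change of 0.38 with overlapping groups (adjusted p = 0.473), which was 0.60 and past both cut-offs without APP.3. Genes described as AP-1 targets had 1 of 12 higher and 0 lower, with 6 genes on each side of 0 and a median of 0.02, which was 0.34 without APP.3 and 0.20 without WT.2. Plaur, the urokinase receptor, rose by a log2 fold change of 2.43 (adjusted p = 0.0485) with 26 and 32 APP counts against 6 and 8 WT counts, and had an adjusted p of 0.299 without WT.1 and 0.148 without WT.2. With all libraries its adjusted p was 0.0607 by DESeq2 and 0.0576 by the earlier quasi-likelihood method, and a minimum of 10 counts in every library removed it. Ccnd1, a cyclin of the G1 phase, was at 30.4 and 25.6 CPM in APP against 15.8 and 22.0 (adjusted p = 0.15, but 0.000226 without APP.4), and Hmox1, a heme-degrading enzyme, at 4.48 and 3.16 against 2.32 and 2.93 (adjusted p = 0.375). Vegfa had an adjusted p of 0.0424 at a log2 fold change of -0.43, under the fold cut-off. Its adjusted p was 0.0523 without TMM and 0.0172 by DESeq2. Heat shock genes, which respond to handling and stress, were below 0 in 6 of 6 with a median of -0.28 and 0 past the cut-offs. Leaving out APP.3 gave a median of -0.14, and leaving out APP.4 gave -0.45. Of these, Hspb1 was at 0.758 and 0.646 CPM in APP and 1.12 and 1.33 in WT (adjusted p = 0.363), and Hspa1b at 3.34 and 4.68 against 6.30 and 5.16 (adjusted p = 0.318), the latter past both cut-offs without APP.4 (0.0294).

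**Figure D4:**
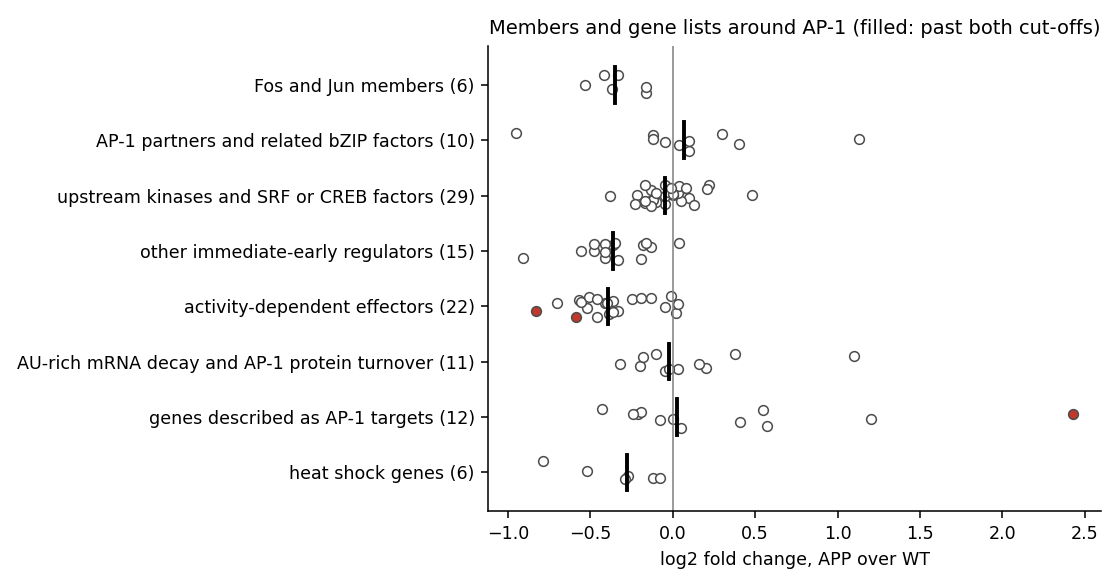
Log2 fold change, APP over WT, of each gene of the family and of 7 lists around it, with the list median as a black bar and filled points for genes past both cut-offs. The members, the other immediate-early regulators and the activity-dependent effectors have medians of -0.35, -0.36 and -0.39, while partners, upstream factors, decay factors and described targets lie between -0.05 and 0.07 with all libraries. The median of the described targets is 0.34 without APP.3.

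Markers of cell types and of neighbouring brain regions moved between libraries as well. Markers of excitatory cortical neurons, the cells in which Fos is best known, were below 0 in 6 of 6 with a median of -0.20 and 0 called, and their summed level was 1170 CPM in both APP libraries against 1350 and 1280 in WT. Interneuron markers had 0 of 6 called and a median of -0.13. All 7 microglial markers were above 0 and 4 were called higher (median 0.72, summed level 366 and 444 CPM against 233 and 230). All 6 astrocyte markers were above 0 and 2 were called higher (median 0.23, led by Gfap at 2.82). The 6 oligodendrocyte markers were all above 0 and 1 was called higher (median 0.48). Their groups did not overlap in 6 of 6, against 21.3% of all features with APP higher. Both cut-offs called 0.935% of all features higher. Endothelial, thalamic and choroid plexus markers had 0 of 5, 0 of 5 and 0 of 2 called, with medians of -0.07, 0.36 and -0.16. All 5 hypothalamic markers were above 0 and 4 were called higher, with a summed level of 5.72 and 8.91 CPM in APP and 1.23 and 0.79 in WT. Avp and Sim1 were at 0 in WT.2 and Oxt at 0 in WT.1. Striatal markers had 0 of 6 called and a median of -0.01, but were at a summed 134 CPM (APP.3), 293 (APP.4), 197 (WT.1) and 219 CPM (WT.2). All 6 striatal markers were lowest in APP.3, the library in which Fos was lowest. The part of any of these cell types or regions in the values of the 6 members was not tested.

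**Figure D5:**
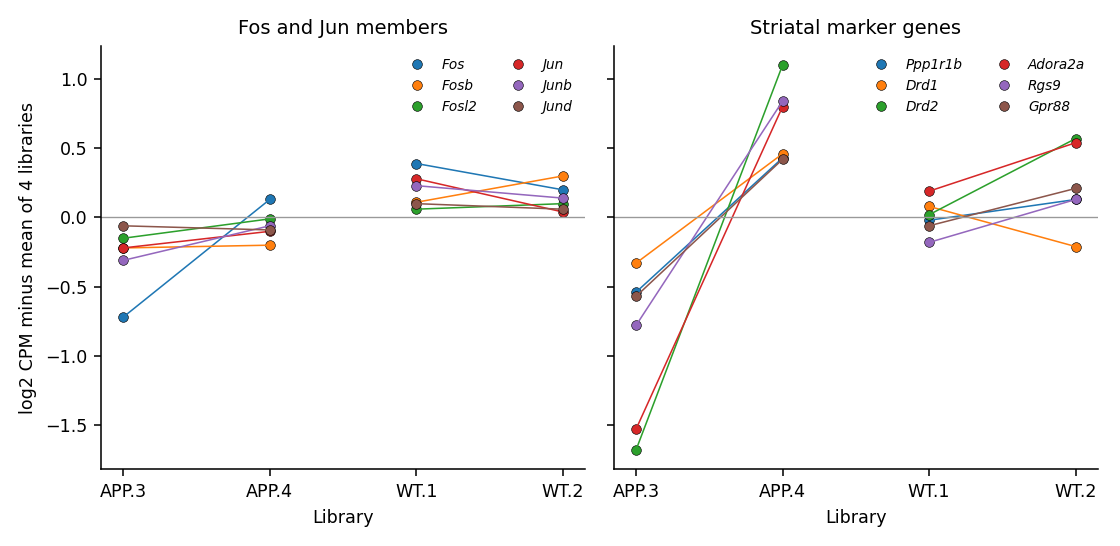
Log2 CPM of the 6 members (left) and of 6 striatal marker genes (right) in each library, as the difference from each gene's own mean over the 4 libraries, with lines joining the libraries of a group. Fos is at -0.72 in APP.3 but 0.13 in APP.4, the other members lie between -0.31 and -0.01 in APP, whereas the striatal markers range from -1.68 to -0.33 in APP.3 and from 0.42 to 1.10 in APP.4.

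The members also differed in how close their values lay to a common course over the libraries. Centred on each gene's own mean, the mean of the 6 was -0.28 for APP.3, -0.06 for APP.4, 0.20 for WT.1 and 0.14 for WT.2 on the log2 scale. Set against the mean course of the other 5, Junb was nearest at a Euclidean distance of 0.0542 over the 4 libraries, followed by Jun at 0.18, Fosl2 at 0.236, Fosb at 0.291 and Jund at 0.306. Fos was farthest, at 0.624. For 5 of 6 members APP.3 was below APP.4 and APP.4 below both WT libraries, an order found in 9.74% of all features. Of 13338 other protein-coding genes with a mean of at least 1 CPM, the 5 nearest to the course were Catsperz (distance 0.00851), Cenpu (0.0216), Cep131 (0.022), Pak6 (0.0305) and Atp8b2 (0.0397). They were picked on these values, so their log2 fold changes of -0.36 to -0.32 follow from the choice. Of these 13338 genes, 7 were nearer than Junb to the course of its 5 relatives, and 11807 were nearer than Fos to the course of its own. The distance grows with the size of a gene's swing, which was widest in Fos, from -0.72 in APP.3 to 0.39 in WT.1. A large distance therefore need not mean a different course.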

How the data were processed

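Ribosomal RNA was removed from cortical RNA of 2 APP and 2 WT mice, which was sequenced with a strand-specific paired protocol. The authors aligned reads with FANSe2 to Ensembl mouse transcripts, allowing up to 7 mismatches, and deposited raw read counts per transcript. The submitters' processing notes name CASAVA 1.8, edgeR and hg19, a human build, so coordinates were taken from GENCODE M21 (GRCm38). No use was made of the authors' fold changes, p-values and FDR, or of 4 other per-library columns.

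The deposited symbols mix letter case, are blank for 8274 of 37539 rows and span several genes in 256 cases, so counts were summed per GENCODE M21 gene rather than per symbol as planned, which left the members' sums the same. Identifiers matched 98.2% of rows, and 681 unmatched rows stayed as their own features. All 18386 features had the 10 counts over the libraries that were required.

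Groups were compared in R 4.3.3 with edgeR 4.0.16 (quasi-likelihood test, TMM, no covariate), which was checked on simulated counts, and with DESeq2 1.42.0 as an alternative. The common dispersion came to 0.00778. The quasi-likelihood variance of a gene was moderated towards that of other features, with 6.85 of 8.85 total degrees of freedom from this prior. Log2 CPM had a prior count of 2. Python 3.11.15, scipy 1.17.1 and blastn 2.17.0 were also used. Promoters came from RefSeq (GRCm38.p6), where all 6 members matched.

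Columns were matched to WT mice by number and to APP mice by group only. The members and gene lists were chosen with earlier results of these data known. Named genes are the members, list genes past both cut-offs, the 2 genes of largest absolute log2 fold change per list with at least 10 counts in every library, and the 5 genes nearest to the members' mean course. A further gene that this rule names is not reported here. Srf, Creb1, Egr1, Homer1, Ptgs2, Dusp6, Vegfa, Junos, Gm11175 and single markers were named after their values were seen.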

Additional observations from a re-analysis of the deposited data

How the results depend on the processing

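The alternatives were edgeR's exact, likelihood ratio and earlier quasi-likelihood tests, DESeq2, library totals without TMM, DESeq2 size factors, TMM over protein-coding genes, at least 10 counts in every library, protein-coding transcripts only, single transcripts, an adjusted p alone, a fold change of at least 2, each library left out, and, added after the data had been seen, sums per deposited symbol. With all libraries, the number of members past the cut-offs was 0 in each of them. With 1 library left out it ranged from 0 to 1, and log2 fold changes ranged from -1.02 to -0.17 for Fos, -0.51 to -0.32 for Fosb, -0.23 to -0.09 for Fosl2, -0.44 to -0.20 for Jun, -0.49 to -0.25 for Junb and -0.18 to -0.13 for Jund. Those fits leave 1 sample in a group, which is assumed to vary like the other group. The log2 ratio of the Fos to the Jun group, -0.16 as reported, ranged from -0.37 to 0.04 and turned to the opposite sign only without APP.3, as the ratio of APP.4 exceeds those of WT. Over all features, 179 passed the cut-offs, against 354 by the exact test, 391 by the likelihood ratio test, 319 for single transcripts, 98 at a fold change of at least 2, and 67 to 609 with a library left out. The labels pair no APP mouse with a WT mouse, so no paired analysis was made. The APP columns carry the numbers 3 and 4, which no label of an APP mouse carries. With 2 mice per group, the 95% interval of Fos reaches from -1.02 to -0.04, and the members had 237 to 1864 counts per library.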
